A study of Mus musculus with 7 samples.

Results

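Interferon-stimulated genes were examined in lesional skin of mice with and without OX40L. The set was drawn up by name as 32 genes induced by type I or type II interferon, without the Ifitm family and the genes of class I presentation. A row with the platform symbol was found for 31 of the 32, among 23185 rows with 1 gene symbol. Ifi44 had no row of that symbol and is not analysed here. The study compared 4 ox40l-/- (knockout) with 3 ox40l+/+ (wild type) samples, 1 Affymetrix array each, and the series title concerns protection from fibrosis driven by inflammation. Both groups were male mice on a C57BL/6 background, 9 weeks old, and both had been injected with bleomycin for 3 weeks, so no untreated skin is part of the comparison. The labels name no promoter or cell type for the deletion. Nothing in them ties a sample to an animal of its own, and a p-value here covers the variation among these arrays, some of which may be technical.

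Interferons are cytokines of antiviral defence. Type I interferons signal through a receptor that activates STAT2, which acts with IRF9 in a complex that binds the interferon-stimulated response element (ISRE) of target promoters. Type II interferon, interferon gamma, is made mainly by T cells and natural killer cells and acts on promoters that carry the gamma-activated site (GAS). The induced proteins block viral replication, sense nucleic acids, amplify or restrain the signal and arm cells against intracellular microbes. OX40L is a costimulatory ligand for OX40 on activated T cells, and in skin keratinocytes, fibroblasts and leukocytes can all respond to interferon.

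The promoters show what the set shares in sequence. RefSeq promoter windows on GRCm38.p6, from 250 bases before to 50 after an annotated start, were available for 25 of the 32 genes, with 32 windows in all. The core of the ISRE was searched as TTTC, any 2 bases and TTTC again, or as GAAA, any 2 bases and GAAA, so that both strands were covered, and matches could overlap each other or a GAS match. It stood in 14 of the 32 windows (43.8%), against 3.44% of the 32851 windows of all genes. The GAS was searched as TTCNNNGAA, which reads the same on both strands, and stood in 8 of the 32 windows (25.0%), against 8.30% of all windows. A match describes the letters of a window and does not show that a factor binds there. The stretches below, 80 bases each and 5′ to 3′ on the gene's strand, carry the ISRE core in capitals and are those of genes whose values are described later. Isg15 lies at chr4:156200840-156200919 on the minus strand, Ifit1 at chr19:34640769-34640848 and Ifit3 at chr19:34583372-34583451 on the plus strand, Oas1a at chr5:120907526-120907605 on the minus strand, Gbp3 at chr3:142559964-142560043 on the plus strand, and Igtp at chr11:58199476-58199555 on the plus strand.
Isg15: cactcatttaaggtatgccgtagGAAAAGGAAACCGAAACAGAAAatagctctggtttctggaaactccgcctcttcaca
Ifit1: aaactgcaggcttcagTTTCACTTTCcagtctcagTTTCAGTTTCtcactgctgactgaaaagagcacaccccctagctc
Ifit3: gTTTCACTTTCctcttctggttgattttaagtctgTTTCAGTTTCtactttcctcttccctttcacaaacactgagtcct
Oas1a: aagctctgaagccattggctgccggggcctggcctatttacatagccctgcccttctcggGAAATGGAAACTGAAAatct
Gbp3: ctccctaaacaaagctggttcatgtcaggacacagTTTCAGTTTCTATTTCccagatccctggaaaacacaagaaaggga
Igtp: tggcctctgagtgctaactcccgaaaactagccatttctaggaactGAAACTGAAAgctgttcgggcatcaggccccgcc
In Isg15, 3 overlapping matches formed 1 run of GAAA repeats, ending 57 bases before the start. Ifit1 and Ifit3 carried 2 separate matches each. Gbp3 had another window, which held no match. Neither window of Irf1 held an ISRE match. The window shown (chr11:53769888-53769967, plus strand) carried a GAS match 90 to 82 bases before its start, in capitals, and the other window carried none.
Irf1: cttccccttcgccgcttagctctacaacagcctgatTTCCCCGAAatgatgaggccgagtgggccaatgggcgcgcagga

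The wild type arrays were the least even. Values were most spread out on wild type replicate 1 (SD 1.72 across probe sets) and least on wild type replicate 3 (SD 1.22), with SDs of 1.38 to 1.48 for the 5 others. The lowest correlation between any pair of arrays, 0.761 across probe sets, was between those 2 wild type arrays. The skin label fits the keratinocyte keratins Krt14, with values from 9.54 to 10.94, and Krt10, with values from 8.14 to 10.53, far above the median of all values, 3.60. The fibroblast collagen Col1a1 lay between 4.99 and 7.05 and the pan-leukocyte gene Ptprc between 4.23 and 5.98. Skeletal muscle markers averaged 8.16 to 10.42, so the samples also held muscle RNA. In whole skin, fewer cells of a type and less RNA per cell cannot be told apart.

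As a group, the interferon-stimulated genes showed no shift between knockout and wild type skin beyond that of all genes. Of the 31 genes, 17 had a higher and 14 a lower mean in knockout, as did 51.7% and 48.3% of all genes, with a median difference of 0.01 on the log2 scale, the same as the 0.01 over all genes. None of the 31 passed the test at an adjusted p under 0.05 (limma, Benjamini-Hochberg over 23185 genes), where 0.00431% of all genes did, and none had an unadjusted p under 0.05, where 1.88% of all genes did. Single differences ran from -0.47 for Usp18 to 0.78 for Iigp1, and every one of the 31 intervals included 0. The smallest unadjusted p was 0.0907, for Ifi27l2a (limma adjusted p = 0.9995), and the adjusted p was 0.9995 for each of the others except Irgm1, at 0.9998.

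**Figure D1:**
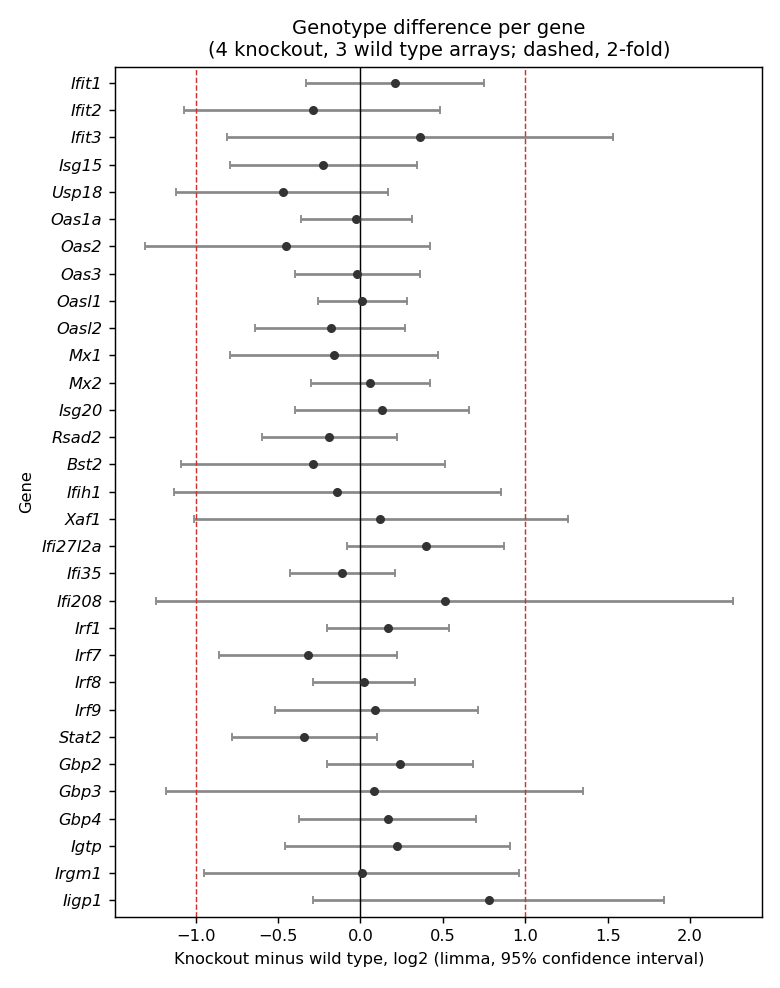
Difference between knockout and wild type for each of the 31 genes on the log2 scale, with limma's 95% confidence interval, which takes the same spread in both groups. Dashed lines mark a 2-fold difference. All 31 intervals cross 0, and those of 21 genes stay inside a 2-fold difference in both directions.

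The intervals set how large a difference could have gone unseen if both groups had the same spread, as the limma fit takes them to have. For 21 of the 31 genes the 95% interval lay inside a 2-fold difference in both directions, against 73.7% of all genes, and for the other 10 it reached 2-fold. The standard error (SE) ran from 0.12 for Oasl1 to 0.75 for Ifi208, with a median of 0.23. The spread lay mostly in wild type: its SD was larger than that of knockout in 27 of the 31 genes, as in 76.9% of all genes. The median SD of a gene was 0.393 in wild type and 0.216 in knockout. With the larger spread in the smaller group, intervals from a shared spread may be too narrow, and the count of 21 too high. For 8 of the 31 genes the mean over the arrays lay below the median of all values, and 14 had exactly the same value on at least 2 arrays, as did 54.3% of all genes.

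The IFIT genes, which encode RNA-binding proteins that block translation of viral RNA, did not move as a family. Ifit1 was at 5.53, 5.53, 5.45 and 6.09 on knockout replicates 1 to 4 and at 5.06, 5.53 and 5.74 on wild type replicates 1 to 3. Its groups overlapped, and its difference was 0.21 (SE 0.23). Ifit2 was at 4.01, 3.81, 3.73 and 4.31 in knockout and at 3.86, 5.08 and 3.83 in wild type. Wild type replicate 2 alone stood high, while the other 2 wild type arrays lay within the knockout range, and the difference was -0.29 (SE 0.33). Ifit3 was at 8.04, 8.50, 7.59 and 7.34 in knockout and at 6.52, 7.41 and 8.60 in wild type. Here wild type replicates 1 and 3 held the lowest and the highest value, so that the wild type range enclosed the knockout range (0.36, SE 0.50). Ifit1, Ifit2 and Ifit3 thus had their highest values on 3 different arrays, knockout replicate 4, wild type replicate 2 and wild type replicate 3.

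Isg15, a ubiquitin-like modifier, and Usp18, the protease that removes it and also damps type I receptor signalling, were both lower on average in knockout, and neither passed the test. Usp18 was at 4.65, 4.58, 4.62 and 4.69 in knockout and at 4.72, 5.82 and 4.78 in wild type. It was the only one of the 31 genes whose groups did not overlap, against 1.91% of all genes in either direction and 0.815% with knockout lower. With arrays centred on their medians no gene of the 31 stood apart, and after quantile normalization Stat2 did in place of Usp18. The gap between the highest knockout and the lowest wild type array was narrow, and the size of the difference, -0.47 (SE 0.27, 95% confidence interval -1.12 to 0.17), came mostly from wild type replicate 2: without that array it was -0.12. Isg15 was at 2.84, 2.84, 2.19 and 2.86 in knockout and at 2.86, 3.28 and 2.59 in wild type, all below the median of all values. The lowest array was knockout replicate 3 and the highest wild type replicate 2, and the groups overlapped (-0.23, SE 0.24).

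The oligoadenylate synthetase family, whose products activate RNase L, held 4 lower and 1 higher gene in knockout, with a median of -0.03, although quantile normalization turned Oas1a to 0.0058 and Oasl1 to -0.017. Oas2 was at 4.60, 3.82, 4.17 and 5.26 in knockout and at 5.33, 4.95 and 4.46 in wild type. Knockout replicates 1 and 4 lay among the wild type values, and the difference was -0.45 (SE 0.37). Oasl2 was at 4.74, 4.43, 4.64 and 4.74 in knockout and at 4.90, 5.12 and 4.43 in wild type (-0.18, SE 0.19), with wild type replicates 1 and 2 above every knockout array and replicate 3 level with the lowest. Oas1a, Oas3 and Oasl1 differed by -0.03, -0.02 and 0.01. Oas3 had the same value on 4 arrays, and Oasl1 was at 3.24, 3.24, 3.22 and 3.24 in knockout and at 3.15, 3.24 and 3.27 in wild type.

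Mx1 and Mx2, dynamin-like GTPases that trap viral particles or nucleoproteins, both lay just below the median of all values on average. Mx1 was at 2.81, 3.08, 3.64 and 3.34 in knockout and at 3.66, 3.60 and 2.88 in wild type (-0.16, SE 0.27). Mx2 was at 3.67, 3.51, 3.37 and 3.51 in knockout and at 3.24, 3.45 and 3.67 in wild type (0.06, SE 0.15). In both genes each group covered most of the range of the other. Laboratory C57BL/6 mice carry a defective Mx1 allele, so a transcript level says nothing of the protein.

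Among the other antiviral effectors, 2 genes were higher and 3 lower in knockout, with Ifih1 turning to 0.082 after quantile normalization, and none passed. Bst2, or tetherin, which holds budding virus at the cell surface, was at 7.11, 7.07, 6.86 and 7.07 in knockout and at 8.21, 7.07 and 6.67 in wild type. Wild type replicate 1 stood high and replicate 3 low around a tight knockout group (-0.29, SE 0.34), and without replicate 1 the difference was 0.16. Ifih1, which encodes the RNA sensor MDA5, was at 5.47, 5.28, 5.02 and 5.74 in knockout and at 5.94, 6.18 and 4.44 in wild type. Wild type replicates 1 and 2 lay above and replicate 3 below every knockout array (-0.14, SE 0.42), and the difference was -0.68 without replicate 3.

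Xaf1, a partner of the apoptosis inhibitor XIAP, was at 5.86, 6.15, 5.21 and 6.56 in knockout and at 6.13, 6.58 and 4.77 in wild type (0.12, SE 0.48). Here too wild type replicate 2 was the highest and replicate 3 the lowest array. Rsad2, or viperin, an enzyme that makes a chain-terminating nucleotide, was at 2.69, 2.81, 2.42 and 2.69 in knockout and at 2.69, 2.69 and 3.15 in wild type (-0.19, SE 0.18). It had the same low value on 4 arrays. Isg20, an RNA exonuclease, ran from 4.73 to 5.21 in knockout and from 4.38 to 5.21 in wild type (0.13, SE 0.23).

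Of the remaining induced proteins, Ifi27l2a, a small membrane protein, had the smallest p of the set. It was at 5.68, 5.87, 5.54 and 5.89 in knockout and at 4.92, 5.54 and 5.58 in wild type. The groups overlapped by a narrow margin, and the difference of 0.40 (SE 0.20) was 0.18 without wild type replicate 1, the low array. Ifi208, a PYHIN family protein, had the widest range, 3.33, with 4.67, 5.26, 4.67 and 5.98 in knockout and 3.08, 6.41 and 4.41 in wild type. Its difference of 0.51 (SE 0.75) became -0.27 without wild type replicate 1 and 1.40 without replicate 2. Ifi35, a partner of NMI, had 1 value, 5.03, on 6 arrays and 5.36 on wild type replicate 3.

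The transcription factors of the pathway held 3 higher and 2 lower genes in knockout. Stat2 was at 4.06, 3.87, 3.90 and 4.06 in knockout and at 4.71, 4.06 and 4.15 in wild type (-0.34, SE 0.19), and the groups met at 4.06. Irf7, which drives type I interferon genes, was at 4.53, 4.36, 3.93 and 4.21 in knockout and at 5.04, 4.36 and 4.36 in wild type (-0.32, SE 0.23). In both, wild type replicate 1 was the highest array. Irf1, an interferon gamma-induced factor, was at 3.38, 3.00, 2.96 and 3.15 in knockout and at 2.94, 2.81 and 3.12 in wild type (0.17, SE 0.16). Irf8, a factor of myeloid cells, and Irf9, the DNA-binding partner of STAT2, differed by 0.02 (SE 0.13) and 0.09 (SE 0.26).

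The interferon-inducible GTPases, which act on vacuoles of intracellular microbes and respond strongly to interferon gamma, were all 6 higher on average in knockout, with a median difference of 0.19, and none passed the test. That direction depended on the wild type arrays: all 6 turned lower with array weights, to between -0.82 (Gbp3) and -0.012 (Gbp2), and all 6 with wild type replicate 2 as the only wild type array. Without wild type replicate 3 alone, Gbp3 was at -0.62, Igtp at -0.081 and Irgm1 at -0.37. Irgm1 also turned to -0.0055 with arrays centred on their medians and to -0.12 without knockout replicate 1. Without knockout replicate 4 it was at -0.19, and at the same value with the replicate block. Iigp1 was at 6.79, 5.43, 6.16 and 6.47 in knockout and at 4.80, 6.39 and 5.12 in wild type. It had the largest difference of the 31 genes, 0.78 (SE 0.45, 95% confidence interval -0.29 to 1.84; limma adjusted p = 0.9995), while wild type replicate 2 lay within the knockout range. The difference was 1.25 without replicate 2 and 0.46 without replicate 1, and it turned to -0.082 with array weights and to -0.17 with replicate 2 as the only wild type array. Gbp2, a guanylate-binding protein, was at 5.83, 5.52, 5.52 and 5.52 in knockout and at 5.42, 5.65 and 5.01 in wild type (0.24, SE 0.19), again with wild type replicate 2 among the knockout values.

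Gbp3 was at 5.22, 5.14, 4.54 and 5.17 in knockout and at 5.29, 5.98 and 3.54 in wild type (0.08, SE 0.54), with wild type replicate 2 highest and replicate 3 lowest. Igtp followed the same order in wild type, at 3.67, 4.33 and 3.09, against 3.77 to 4.24 in knockout (0.22, SE 0.29). Gbp4 was at 3.88, 3.96, 4.08 and 3.44 in knockout and at 3.38, 4.07 and 3.57 in wild type (0.17, SE 0.23). Irgm1 ran from 4.29 to 5.48 and from 4.11 to 5.38 (0.01, SE 0.41). The groups overlapped in every one of the 6 GTPases. Of the lymphocytes that make interferon gamma, natural killer cell markers had 4 of 5 higher in knockout, with a median of 0.13, and T cell markers 3 of 6, with a median of 0.02. In each list 1 marker, higher in knockout, had an unadjusted p under 0.05 in limma, against 1.88% of all genes. The groups did not overlap for 1 of the 5 natural killer and 2 of the 6 T cell markers, against 1.91% of all genes. Such counts were not particular to these cells. Of 5 neutrophil markers 1 had such a p, higher in knockout, as did 1 of 6 hair follicle markers, lower in knockout. In each of those lists 1 marker did not overlap. The mean log2 level of the natural killer markers was 4.41 to 4.71 in knockout and 3.66 to 4.64 in wild type, and the part of these cells in the GTPase values was not tested.

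**Figure D2:**
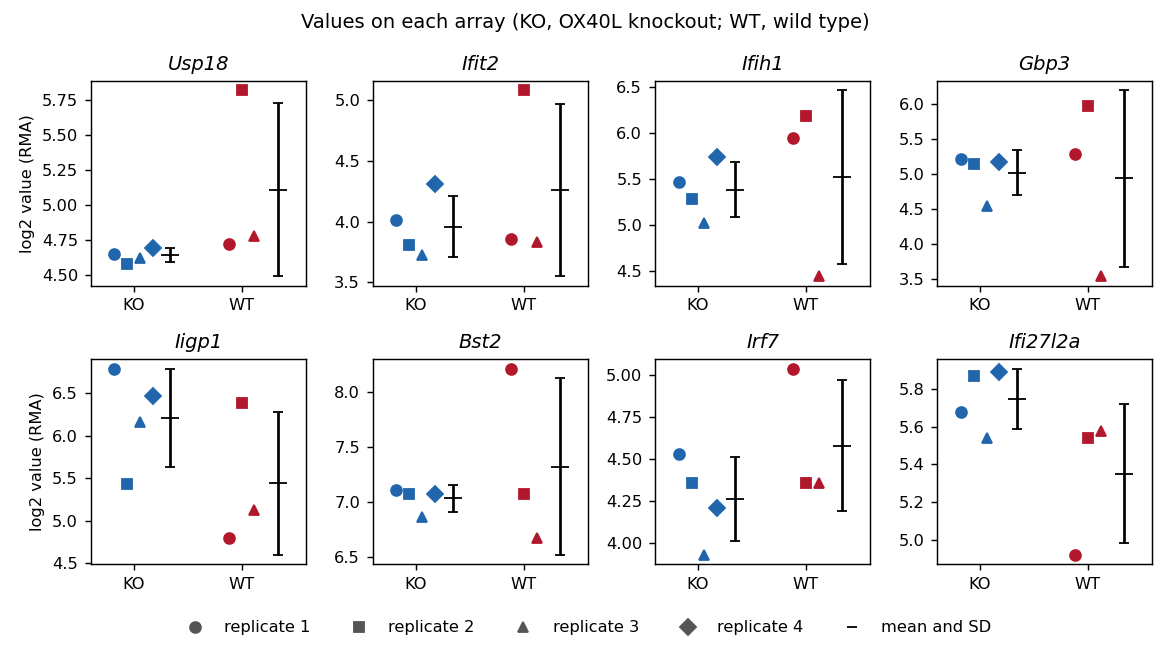
Log2 values of 8 of the genes on each array, by genotype, with the marker shape giving the replicate and the bar the mean and SD of a group (n = 4 knockout, 3 wild type). Wild type replicate 2 is the highest array for Usp18, Ifit2, Ifih1 and Gbp3, and wild type replicate 1 for Bst2 and Irf7.

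Upstream of these genes, no listed gene of the interferon pathway passed the test, and few of all genes did. The lists were 17 ligands, 10 receptors and kinases, 16 sensors and adaptors and 9 negative regulators. In limma none of these 52 genes had an adjusted p under 0.05, against 0.00431% of all genes. None had an unadjusted p under 0.05, against 1.88% of all genes. Of the ligands, 12 were higher and 5 lower in knockout, with a median of 0.08. Ifnb1, the early type I interferon, was at 2.47 to 2.85 in knockout and 2.0 to 2.47 in wild type (0.35, SE 0.18), and Ifne, an epithelial type I interferon, differed by 0.47 (SE 0.33). Both had means below the median of all values in each group, and Ifne was high on knockout replicate 1 alone, at 3.76. Among receptors and kinases, Ifngr1, a chain of the interferon gamma receptor, differed by 0.60 (SE 0.48), with wild type replicate 3 low at 4.47, and Jak2, its kinase, by -0.25 (SE 0.27).

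Of the sensors and adaptors, 6 were higher and 10 lower, with a median of -0.01. Ddx58, the RNA sensor RIG-I, differed by -0.41 (SE 0.37) and Mavs, the adaptor of RIG-I and MDA5, by -0.17 (SE 0.13). Of the negative regulators, 3 were higher and 6 lower. Tnfaip3, which restrains NF-kB, differed by -0.35 (SE 0.21) and Trex1, a DNA exonuclease, by 0.39 (SE 0.25). A list of 54 further interferon-induced genes split into 26 higher and 28 lower, with a median of -0.01. Here too no p in limma was under 0.05, adjusted or not, against 0.00431% and 1.88% of all genes. Its smallest p belonged to Gbp5, a guanylate-binding protein, at 3.95 to 5.07 in knockout and 3.28 to 3.95 in wild type (0.71, SE 0.31, limma adjusted p = 0.9995). The next was Trim21, a cytosolic antibody receptor, at -0.34 (SE 0.19).

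Many of the genes were high or low on the same wild type arrays, a pattern that cut across genotype. Wild type replicate 2 held the highest value, by more than 0.01, for 10 of the 31 genes (32.3%), against 6.75% of all genes, and the lowest for 1 (Irf1). Wild type replicate 3 held the lowest value for 9 of the 31, or 29.0%, against 18.9% of all genes. Wild type replicate 1 held it for 8, or 25.8%, against 38.4% of all genes. The 10 genes highest on replicate 2 were Ifit2, Isg15, Usp18, Oas1a, Oasl2, Ifih1, Xaf1, Ifi208, Gbp3 and Igtp. This pattern was noticed in the values and has no test. The 54 further interferon-induced genes share the arrays: 18 of them (33.3%) were highest on wild type replicate 2 and 22 (40.7%) were lowest on replicate 3. They were also high on knockout replicate 4, with 22.2% highest there against 7.78% of all genes. Their median deviation from their own means was 0.26 on that array, with 41 of 54 above, and 0.21 on wild type replicate 2, with 34 above. In the 31 genes, knockout replicate 4 was above the mean for 20, with a median of 0.02.

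**Figure D3:**
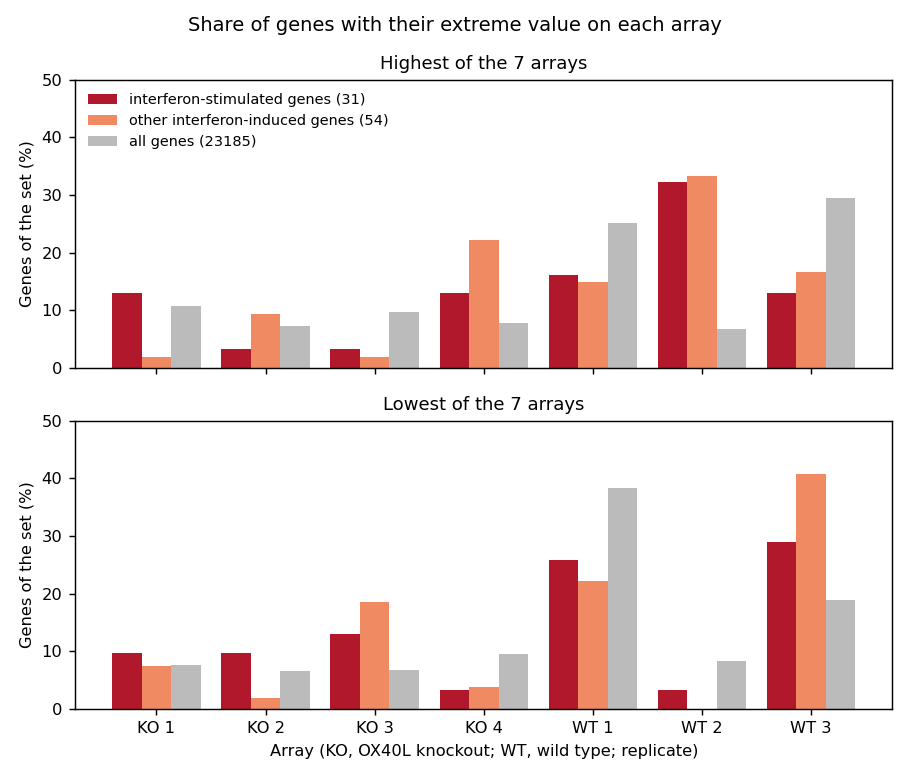
Percent of genes in each set whose highest (top) or lowest (bottom) value fell on a given array, for the 31 interferon-stimulated genes, the 54 further interferon-induced genes and all 23185 genes. Wild type replicate 2 holds the highest value for 32.3% and 33.3% of the interferon sets and 6.75% of all genes.

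Taken as each gene's deviation from its own mean over the arrays, the median over the 31 genes was 0.22 on wild type replicate 2 and -0.20 on replicate 3. It was -0.05 on wild type replicate 1 and between -0.12 and 0.02 in knockout, with replicate 3 the lowest there. After quantile normalization of the values again, the medians on wild type replicates 2 and 3 were 0.24 and -0.23, and replicate 2 was highest for 11 of the 31 genes, against 8.31% of all genes. Replicate 3 was then lowest for 11 of the 31, against 6079 of all 23185 genes. Of the 10 genes highest on replicate 2, 9 had a promoter window, and 6 of those held an ISRE match. Of the other 21, 15 had a window and 8 of those, Ifit1 and Ifit3 among them, held a match. Genes with the element thus lay on both sides.

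Markers of other cells also moved between these arrays. On wild type replicate 2, 5 of 5 macrophage and monocyte markers and 3 of 4 leukocyte markers lay above their own mean over the arrays, with medians of 0.28 and 0.26, and 6 of 6 fibroblast markers did, with a median of 0.31. On replicate 3 the medians were -0.56, -1.32 and -1.10, and after quantile normalization -0.62, -0.97 and -0.48. Of 6 keratinocyte markers, only 1 lay above its own mean on replicate 2, with a median of -0.12, and -0.19 after quantile normalization. Their median on replicate 3 was -0.74, and -0.07 after quantile normalization. Skeletal muscle markers, 5 of 5 above their mean on replicate 2, had a median of -1.42 on replicate 3, and -0.66 after quantile normalization. T cell markers had medians of -0.09 on replicate 2 and 0.06 on replicate 3. The mean log2 level of the macrophage and monocyte markers was 5.32 to 5.75 in knockout and 5.81, 5.82 and 4.90 on wild type replicates 1, 2 and 3, and that of the leukocyte markers 5.61 to 6.26 and 6.87, 6.20 and 4.85. Fibroblast markers averaged 6.34 to 6.86 in knockout and 7.08, 6.89 and 5.61 in wild type. Hair follicle markers, all 6 lower on average in knockout, averaged 3.66 to 5.14 there and 8.36, 5.54 and 4.36 in wild type. After quantile normalization the median deviation of the macrophage and monocyte markers was 0.03 on wild type replicate 1 and 0.25 on replicate 2. The part of these cells, and of the smaller SD of replicate 3 over all probe sets, in the interferon pattern was not tested.

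**Figure D4:**
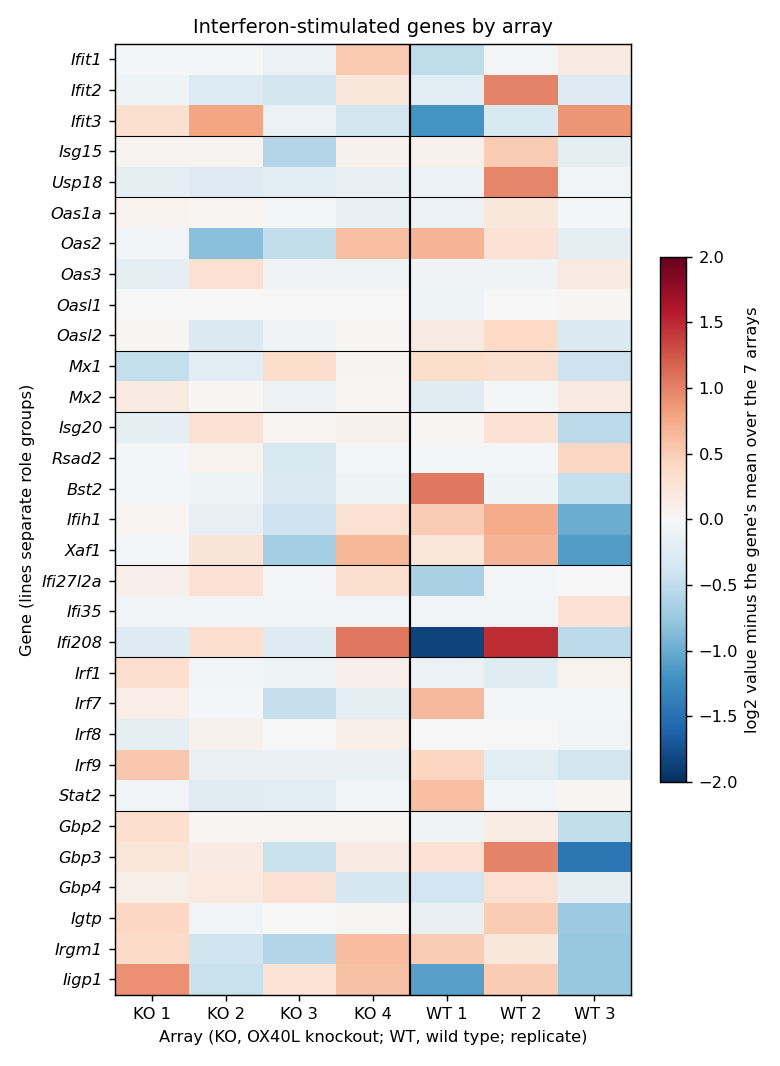
Deviation of each gene's log2 value from its own mean over the 7 arrays (red higher, blue lower), with genes in rows by role and arrays in columns. Wild type replicates 1, 2 and 3 are above the mean for 14, 19 and 10 of the 31 genes, and knockout replicates 1 to 4 for 17, 15, 7 and 20.

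The balance of directions changed with the wild type array left out. Without wild type replicate 1, 15 of the 31 genes were higher and 16 lower in knockout, with a median of -0.02, the same as over all genes. Without wild type replicate 2, 20 of the 31 genes were higher and 11 lower in knockout, with a median of 0.08 against 0.00 for all genes. Then 6 did not overlap, against 8.59% of all genes: Ifi208, Gbp2, Igtp and Iigp1 were higher in knockout, and Usp18 and Stat2 lower. Without wild type replicate 3, 12 were counted as higher, Ifi35 at a difference of 0.0 among them, and 19 were lower. The median was then -0.06 against 0.08 for all genes. Again 6 did not overlap, against 21.4% of all genes, with Irf1 higher and Isg15, Usp18, Oasl2, Ifih1 and Gbp3 lower in knockout. No gene of the 31 passed at an adjusted p under 0.05 in limma without wild type replicate 2 or without replicate 3. In those runs 2 and 3 genes had an unadjusted p under 0.05, against 3.48% and 12.0% of all genes. With wild type replicate 2 as the only wild type array, the spread was taken from knockout. In that run 7 were higher and 24 were counted as lower, Ifi35 at 0.0 among them, with a median of -0.17 against 0.02 for all genes. Ifit2, Usp18, Oasl2 and Gbp3 then had an unadjusted p under 0.05, against 8.73% of all genes, and 13 of the 31 lay outside the knockout range, against 37.5%. When arrays were weighted by their fit, which gave replicate 2 most of the wild type weight, 6 genes had an unadjusted p under 0.05, all lower in knockout, against 13.0% of all genes. A block for the replicate number gave 1, Oas2, against 1.08% of all genes.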

How the data were processed

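RNA of lesional skin was measured on 7 arrays, 1 per sample, with groups taken from the genotype that each title states. The authors deposited log2 values made with RMA (robust multi-array averaging), a method named in, and per, the submitters' processing notes. Its version and the probe-set definition are not given in the sources used here. RMA fits arrays jointly and can return 1 value for several arrays, and the number of arrays limits the precision. No filter was applied. Genes were named by the platform annotation: 23185 of 25206 probe sets had 1 symbol, 2021 were unnamed here, and no gene had more than 1. The fit of knockout against wild type used limma 3.58.1 and R 4.3.3 (lmFit, eBayes, two-sided, Benjamini-Hochberg over 23185 genes), tested first on simulated data. Tables and figures used Python 3.11.15 and matplotlib 3.10.9. Alternatives covered moderation, dim genes, scaling, array weights, array SD, blocks by replicate number or description code, unnamed probe sets and left-out arrays. The genes and lists were chosen with earlier results of these data known. Arrays were compared gene by gene. Levels of different genes were also set beside the median of all values, averaged over markers or ranked within a role. All genes of the set are described. Array values are given for the 2 with the smallest p and the highest and lowest signal of each role, and for others chosen after their values were seen; of up to 4 genes allowed per pathway list, the 2 with the smallest p are named.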

Additional observations from a re-analysis of the deposited data

Results flagged for a closer look

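Among the 4 knockout arrays, 1 value stood far from the other 3 in 11 of the 41 named genes, 8 of them interferon-stimulated genes of the set, by Dixon's criterion at its 95% critical value for 4 samples. The nominal rate is about 1 in 20 groups, but 20.3% of all genes met the criterion in these values, where exact ties between arrays are common, against 25.8% of the 31 genes. Knockout replicate 3 was the low array for Isg15 (2.19), Oasl1 (3.22), Bst2 (6.86), Gbp3 (4.54) and Tnfaip3 (2.49). Knockout replicate 1 was the high array for Irf9 (3.93), Gbp2 (5.83), Igtp (4.24) and Ifne (3.76), and the low array for Mavs (3.83). Knockout replicate 4 was the high array for Ifit1 (6.09). The gap was wide for Ifne, whose other knockout arrays lay at 2.60 to 2.69, and narrow for Oasl1, whose other arrays lay at 3.24.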

How the results depend on the processing

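No interferon-stimulated gene passed an adjusted p under 0.05 in limma under any alternative run used. Of 762 values of the 41 named genes, 696 did not reverse sign. These include Ifi35 at 0.0 without wild type replicate 3 and without wild type replicates 1 and 3 together. The intervals of all 41 named genes included 0 in the main fit, so this does not set the 66 that changed sign apart. The count of all genes past the adjusted threshold, 1, became 0 with an intensity trend and robust moderation, quantile normalization, median centring, the array SD as covariate, either fixed block, all probe sets, or any array left out (0 in all 7 runs). The number of members with an unadjusted p under 0.05 was 0 and became 6 with array weights, 1 with the replicate block (Oas2), 4 without wild type replicates 1 and 3 together, and 0 to 3 with single arrays left out. The number whose genotypes did not overlap was 1 and became 0 with median centring, 13 without wild type replicates 1 and 3, and 1 to 6 with single arrays left out; without those 2 wild type arrays 37.5% of all genes did not overlap. Among all genes in limma, 13.0% had an unadjusted p under 0.05 with array weights and 1.08% with the replicate block. Without wild type replicate 2 the share was 3.48% (2 members), and without wild type replicate 3 it was 12.0% (3 members). The 6 members that did not overlap in each of those 2 runs stood against 8.59% and 21.4% of all genes. The median difference over the members was -0.13 with array weights and -0.17 without wild type replicates 1 and 3. Array weights used limma's gene-by-gene estimator, which gave wild type replicates 1, 2 and 3 weights of 0.203, 3.72 and 0.208. The default estimator stopped before convergence at a weight of 75.4 for replicate 2, and its calls, 4032 genes with 8 members lower and 1 higher, were not used.

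The replicate block moved the members' median to 0.0018, the same as without knockout replicate 4. Only knockout has a replicate 4, so the block takes that array out of the difference. Same-numbered arrays did not deviate together (r of -0.0858, -0.145 and 0.0341 for replicates 1, 2 and 3), so the number was not taken as a pairing. The block also turned Irf8 (-0.016), Xaf1 (-0.082), Irgm1 (-0.19), Oas3 (0.0018) and Oas1a (0.016), again the values without knockout replicate 4. Quantile normalization turned Oasl1 (-0.017), Oas1a (0.0058) and Ifih1 (0.082), median centring turned Oasl1 (-0.0015) and Irgm1 (-0.0055), and the array SD as covariate turned Ifih1 (0.019). Array weights turned Oasl1 (-0.0022), Gbp2 (-0.012), Iigp1 (-0.082), Gbp4 (-0.14), Ifngr1 (-0.15), Isg20 (-0.17), Irgm1 (-0.25), Igtp (-0.32), Xaf1 (-0.55), Gbp3 (-0.82), Ifi208 (-1.04) and Oas3 (0.067). Leaving out wild type replicates 1 and 3 turned the same 12 genes, to -0.0043, -0.052, -0.17, -0.23, -0.25, -0.23, -0.23, -0.41, -0.63, -0.96, -1.27 and 0.063, and also Irf8 (-0.0029) and Tnfaip3 (0.05).

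With single arrays left out, the sign turned within these ranges: Ifit2 -0.50 to 0.12, Ifit3 -0.13 to 0.90, Oas1a -0.099 to 0.076, Oas3 -0.12 to 0.063, Oasl1 -0.021 to 0.037, Mx2 -0.043 to 0.17, Isg20 -0.11 to 0.31, Bst2 -0.61 to 0.16, Ifih1 -0.68 to 0.19, Xaf1 -0.41 to 0.50, Ifi208 -0.27 to 1.40, Irf8 -0.016 to 0.083, Irf9 -0.073 to 0.34, Gbp3 -0.62 to 0.60, Igtp -0.081 to 0.54, Irgm1 -0.37 to 0.27, Ifngr1 -0.033 to 1.02 and Jak2 -0.58 to 0.0026. The cause of these turns was not tested beyond the arrays left out.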
